A study of Mus musculus with 4 samples.

Results

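The replication-dependent histone genes were described in RNA sequencing data from mouse embryonic fibroblasts (MEFs) of 2 genotypes. They were taken as all gene symbols of the form Hist1h to Hist4h in the deposited table, which gave 69 of 36846 symbols: 6 genes of linker histone H1, 19 of H2A, 19 of H2B, 12 of H3 and 13 of H4. The groups were wild type (WT, 2 libraries) and Dnmt3l knockout (Dnmt3l-KO, 2 libraries). All 4 libraries came from C57BL/6 fibroblast lines at passage 4, which had been derived from embryos of day 13.5 to 14.5 in crosses between Dnmt3l heterozygotes and grown in DMEM with 10% serum. RNA was depleted of ribosomal RNA and copied with random primers, so messages without a poly(A) tail were read too. The study looked for genes that could account for a better outcome of cloned embryos from Dnmt3l-KO cells. The labels do not state whether the 2 libraries of each genotype go back to different embryos, so p-values measure only the spread between these libraries, which may be technical.

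Each nucleosome wraps DNA around a core of H2A, H2B, H3 and H4, and H1 binds the linker DNA at its outside. The replication-dependent genes supply these proteins in S phase, when new DNA must be packed. They lie in clusters, mostly lack introns, and their messages end in a conserved stem-loop in place of a poly(A) tail. The stem-loop is bound by SLBP, the U7 small nuclear RNP directs the cut behind it, and the messages are degraded when DNA synthesis stops. In a growing fibroblast culture their level therefore follows the share of cells in S phase as well as the output of each cell. In these bulk libraries, fewer cells in S phase and less histone RNA per cell cannot be told apart.

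The 69 genes lay in few places of the GRCm38 genome. The Hist1 genes filled 2 stretches of chromosome 13, chr13:21715711-22043658 with 23 genes and chr13:23531044-23934913 with 31, and Hist1h2al lay alone elsewhere on that chromosome. The Hist2 cluster held 10 genes (chr3:96219885-96270192), the Hist3 cluster 3 genes on chromosome 11, and Hist4h4 lay on chromosome 6. In GENCODE M21 transcripts of the same build, 44 of the 69 genes held a stem-loop with the letters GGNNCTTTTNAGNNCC whose first 6 bases pair with its last 6. It was found in 57 of 141767 transcripts of the annotation (0.0402%). Many transcripts of the other histone genes, such as that of Hist1h3h with 411 bases, end at the stop codon in GENCODE M21. A stem-loop behind it could not be found there, so these genes are not shown to lack one. The form differed by type: the 33 genes of H1, H2A, H2B and H3 that had one shared 1 stem, and the 11 H4 genes had 2 other stems. One gene of each form is shown in the sense orientation, chosen among those the results turn on, with the stem-loop in capitals.
Hist1h2ad (H2A): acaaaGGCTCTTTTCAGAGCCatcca
Hist1h2bb (H2B): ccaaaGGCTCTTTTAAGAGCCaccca
Hist2h2ac (H2A): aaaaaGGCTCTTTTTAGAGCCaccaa
Hist1h4d (H4): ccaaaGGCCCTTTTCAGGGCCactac
Hist2h4 (H4): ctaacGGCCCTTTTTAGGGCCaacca
Hist1h4b (H4): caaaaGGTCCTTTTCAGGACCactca

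The stem of 9 of these 11 H4 genes thus held more G and C than that of the other types. The form of Hist1h2ad was found in 26 genes of H1, H2A, H2B and H3, that of Hist1h2bb in 6, and that of Hist2h2ac in 1. Among H4 genes, 7 had the form of Hist1h4d, 2 that of Hist2h4 and 2 that of Hist1h4b.

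The libraries held 40681328 to 51465395 estimated counts, of which 171591 to 223294 were from histone genes. A count of 3 came to 0.0601 to 0.0719 CPM, the count scaled for library size with TMM, a normalization that takes most genes as alike. For Dnmt3l itself, 6 and 1 counts were found in the WT libraries and 0 in both others, too few to check the genotype labels. All 10 fibroblast markers were detected in all 4 libraries, with summed levels of 13490 and 12272 CPM in WT against 11560 and 16462 CPM in Dnmt3l-KO. Summed markers of leukocytes were at 7.14 to 10.7 CPM, of endothelium at 6.53 to 20.2 CPM, of epithelium at 3.97 to 7.62 CPM and of muscle at 16.2 to 27.2 CPM. Of these markers, Aif1, Krt5 and Krt14 were at 0 in each library, and Ptprc, Pecam1 and Cdh5 lay under 0.35 CPM. The leukocyte, endothelial and epithelial sums thus came mostly from other listed markers. The sums of leukocytes, endothelium and muscle were highest in Dnmt3l-KO replicate 1, and that of epithelium in WT replicate 1.

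Histone messages were abundant in both genotypes. Of the 69 genes, 13 had a mean of at least 100 CPM, 44 one of 10 to 100 CPM, 4 one of 1 to 10 CPM and 8 one under 1 CPM. Per transcript length, H4 genes led: Hist1h4d had a mean of 689 FPKM over the 4 libraries, Hist1h4m 506, Hist1h4h 492 and Hist1h4c 361. Hist2h2aa1, an H2A gene of the Hist2 cluster, stood between them at 477 FPKM. Hist1h4m and Hist2h2aa1 each have a near-identical copy, which had only 2 to 82 and 16 to 22 counts a library. The order of single genes thus depends on how reads were divided among copies. The most abundant 10 genes together held 46.2% of the summed histone FPKM. The testis-type genes Hist1h1t, Hist1h2aa and Hist1h2ba, and Hist1h2al, were too low to test. Hist1h2aa and Hist1h2al had 0 counts in each library, which allows up to 0.0719 CPM in the shallowest, a limit that covers counting error only. The other 65 genes passed the filter on low counts.

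Most histone genes were lower in Dnmt3l-KO, but no single gene passed the main test. The log2 fold change, Dnmt3l-KO minus WT, was negative in 60 of the 65 tested genes, with a median of -0.36. Over all 14760 symbols tested it was negative in 48.7%, with a median of 0.0062. Both Dnmt3l-KO libraries lay below both WT libraries for 31 histone genes, against 16.5% of all symbols. The reverse held for 0 histone genes, against 16.2% of all symbols. In edgeR's quasi-likelihood test with Benjamini-Hochberg adjustment, 0 of the 65 genes passed, where 0.0203% of all symbols did. At an unadjusted p under 0.05, 17 histone genes were lower and 0 were higher, against 1.81% and 2.34% of all symbols. DESeq2's Wald test called 3 of them, Hist1h2ad, Hist1h2bb and Hist1h3h, where it called 0.166% of symbols, and limma-voom called 0. edgeR with no filter called Hist1h2ad, where it called 0.0378% of symbols.

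**Figure D1:**
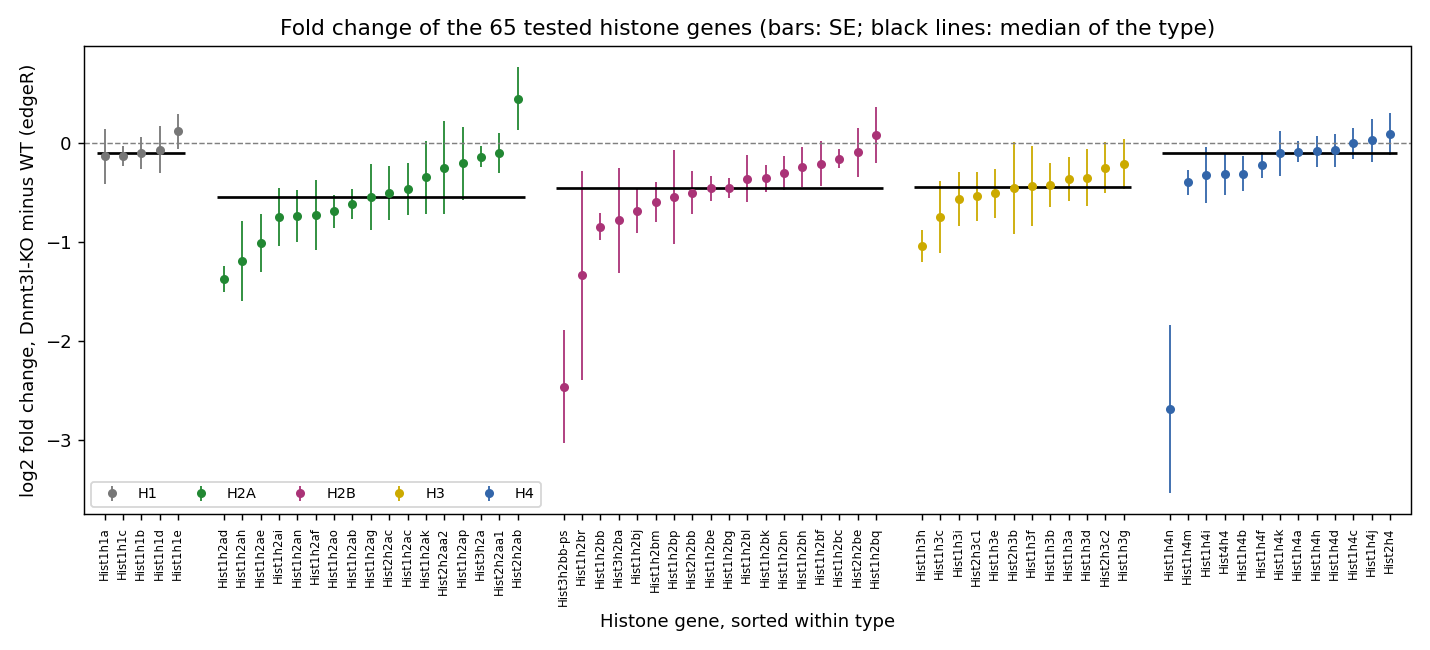
Each point is 1 of the 65 tested histone genes, sorted within its type on the x axis, with its log2 fold change, Dnmt3l-KO minus WT, on the y axis, bars for the standard error and a black line at the median of the type. H2A, H2B and H3 genes lie mostly between -0.2 and -1, while H1 genes and most H4 genes lie near 0.

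The size of this shift was uneven among libraries. Relative to the WT mean, 62 of the 65 genes were lower in Dnmt3l-KO replicate 1, with a median log2 difference of -0.55. In Dnmt3l-KO replicate 2, 46 were lower, with a median of -0.15. The WT libraries themselves differed by a median of 0.36, and 57 of the 65 genes were higher in WT replicate 2 than in replicate 1. The Dnmt3l-KO libraries likewise differed by 0.36, with 57 genes higher in replicate 2. Set against WT replicate 1 alone, Dnmt3l-KO replicate 1 was lower in 56 of the 65 genes and Dnmt3l-KO replicate 2 in 35. Without WT replicate 2 or Dnmt3l-KO replicate 1 the median fold change was -0.17 in each case, with 47 of 66 genes negative. Without WT replicate 1 or Dnmt3l-KO replicate 2 it was -0.53 and -0.55, with 61 and 62 of 65 genes negative. The 4 values keep 1 sign, and the size depends on which library is left out. The summed fibroblast markers were likewise lowest in Dnmt3l-KO replicate 1, and their part in the histone values was not tested.

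The per-gene values of H2A, H2B and H3 were further below 0 than those of H1 and H4, and how far depended on the library left out. H2A genes were negative in 16 of 17 tested, with log2 fold changes of -1.37 to 0.44 and a median of -0.55. H2B genes were negative in 17 of 18, with a median of -0.46, and H3 genes in 12 of 12, with a median of -0.45. H4 genes were negative in 11 of 13 and H1 genes in 4 of 5, each with a median of -0.11. Both Dnmt3l-KO libraries lay below both WT libraries for 11 H2A, 11 H2B, 5 H3, 3 H4 and 1 H1 genes. As shares of the tested genes these were 64.7%, 61.1%, 41.7%, 23.1% and 20.0%, against 16.5% of all symbols. The shares of H4 and H1 thus lay near that of all symbols. The differences between types were not tested. Without WT replicate 2 the H4 and H1 medians were at or above 0, while those of H2A, H2B and H3 stayed negative with each library left out in turn. The H2A median then ranged from -0.92 to -0.20, that of H3 from -0.79 to -0.17 and that of H2B from -0.60 to -0.25, nearest to 0 without Dnmt3l-KO replicate 1 for H2A and H3 and without WT replicate 2 for H2B. With near-identical genes summed, the H2A median over 4 features was -0.15, level with H4 at -0.15 and near H1 at -0.11. These 4 were the sum of 12 Hist1 genes at -0.60, the sum of 4 genes around Hist2h2aa1 at -0.16, Hist3h2a at -0.14 and the low Hist2h2ab at 0.44. The H2B median was then -0.46 over 4 features, and the 1 feature of H3 stood at -0.48.

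Summed over the genes of a type, which does not depend on how reads were divided among its copies, H2B alone separated the genotypes. Summed H2B was 1112 and 1349 CPM in WT and 851 and 971 CPM in Dnmt3l-KO. Summed H3 was 625 and 832 CPM in WT and 400.3 and 643 CPM in Dnmt3l-KO. Summed H2A was 830.3 and 1060 CPM in WT and 580.4 and 854.5 CPM in Dnmt3l-KO. Of these 3 types, H3 and H2A overlapped between the genotypes, because Dnmt3l-KO replicate 2 was slightly above WT replicate 1. Summed H4, the largest pool, was 1306 and 1650 CPM in WT and 1254 and 1410 CPM in Dnmt3l-KO. Summed H1 was 357 and 460 CPM in WT and 353 and 429 CPM in Dnmt3l-KO. Neither H4 nor H1 separated the genotypes. Summed over all histone genes, the level was 4231 and 5351 CPM in WT and 3438 and 4308 CPM in Dnmt3l-KO, again with overlap. The log2 ratio of the genotype means was -0.48 for H3, -0.43 for H2B, -0.40 for H2A, -0.15 for H4 and -0.06 for H1. With each library left out it ranged from -0.86 to -0.18 for H3, from -0.57 to -0.29 for H2B and from -0.70 to -0.15 for H2A, and without WT replicate 2 it was 0.03 for H4 and 0.13 for H1.

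The make-up of the histone message pool was steadier within WT than its total. Replicate 2 held 1.26 times the histone level of replicate 1 in WT and 1.25 times in Dnmt3l-KO, yet H4 made up 30.9% and 30.8% of the histone CPM in the WT libraries. In Dnmt3l-KO the H4 share was 36.5% and 32.7%, above both WT values. The H1 share was 8.45% and 8.59% in WT and 10.3% and 9.97% in Dnmt3l-KO, again higher in both. The H2B share was 26.3% and 25.2% in WT and 24.8% and 22.5% in Dnmt3l-KO, lower in both. H2A (19.6% and 19.8% in WT, 16.9% and 19.8% in Dnmt3l-KO) and H3 (14.8% and 15.6%, 11.6% and 14.9%) were lower in Dnmt3l-KO replicate 1 alone. As ratios within a library, H2B to H4 was 0.852 and 0.818 in WT and 0.679 and 0.689 in Dnmt3l-KO. The ratio of H3 to H4 was 0.479 and 0.504 in WT and 0.319 and 0.456 in Dnmt3l-KO. H2A to H4 was 0.636 and 0.643 in WT and 0.463 and 0.606 in Dnmt3l-KO. Each of these 3 ratios was lower in both Dnmt3l-KO libraries than in both WT libraries. They are descriptions without a test, and shares that add up to a whole cannot move independently.

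**Figure D2:**
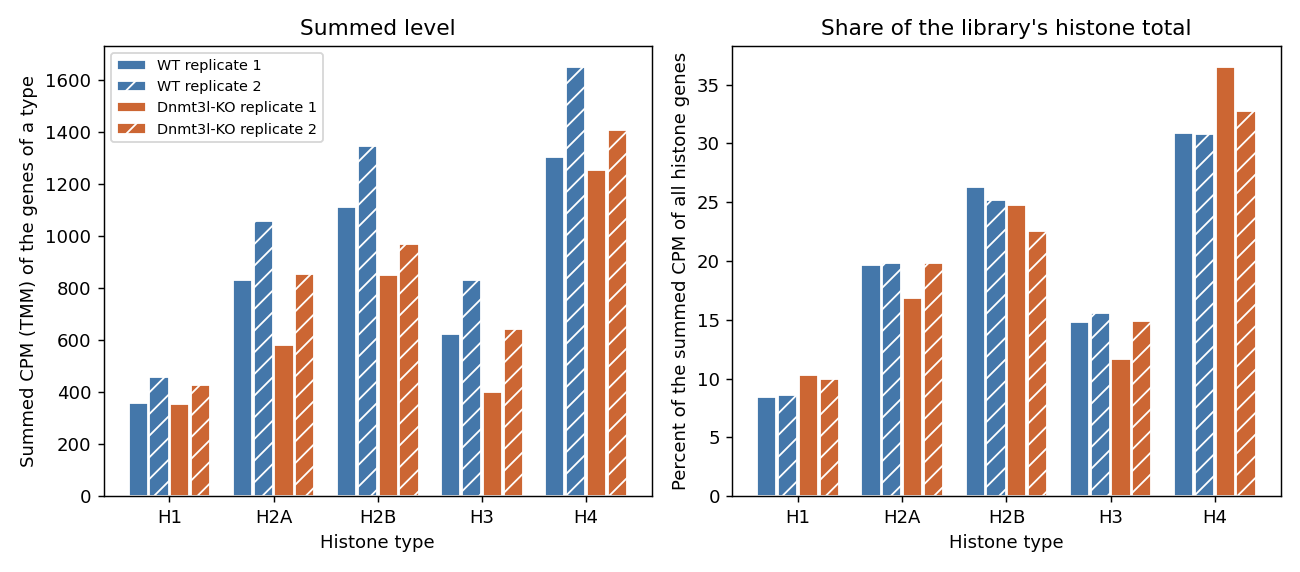
Bars give, for each histone type on the x axis and each of the 4 libraries, the summed CPM (left) and its percent of the library's histone total (right); hatched bars are replicate 2. The summed level is higher in replicate 2 of each genotype for every type, while the H4 share is about 31% in both WT libraries and above it in both Dnmt3l-KO libraries.

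Among H2A genes, Hist1h2ad stood out. Hist1h2ad (chr13:23574381-23574915) had 22.7 and 27.1 CPM in WT and 9.70 and 9.50 CPM in Dnmt3l-KO. The Dnmt3l-KO libraries agreed closely and lay far below both WT libraries. Its log2 fold change was -1.37 ± 0.13 (SE; edgeR, adjusted p = 0.245; DESeq2, adjusted p = 1.7e-08). In the authors' deposited table, a comparison of transcripts in which 0.441% of those with an adjusted p passed 0.05, Hist1h2ad had a log2 fold change of -1.20 and an adjusted p of 0.000302. This table also called Hist1h2bb (-0.78, adjusted p = 0.0183) and Hist1h3h (-0.92, adjusted p = 0.0117), and no other of the 64 histone transcripts with an adjusted p.

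Further H2A genes of the Hist1 cluster showed smaller differences of the same sign. Hist1h2ae had 22.1 and 23.1 CPM in WT and 7.98 and 14.5 CPM in Dnmt3l-KO (-1.01 ± 0.29). Hist1h2ao had 36.2 and 44.7 CPM against 22.4 and 27.7 CPM (-0.69 ± 0.16). Hist1h2ab had 102 and 125 CPM against 67.6 and 81.0 CPM (-0.62 ± 0.15). All 3 were separated by genotype and none passed in edgeR (adjusted p = 0.999 for each). Hist1h2ap, one of the most abundant, overlapped, with 66.1 and 91.3 CPM in WT and 44.9 and 91.3 CPM in Dnmt3l-KO. Hist1h2ao and Hist1h2ap were 100% identical over 452 aligned bases. The H2A genes of the Hist2 cluster behaved differently among themselves. Hist2h2aa1 (chr3:96245497-96246052) had 257 and 342 CPM in WT and 241 and 317 CPM in Dnmt3l-KO, with replicate 2 above replicate 1 in both genotypes and the groups overlapping. Its log2 fold change was -0.10 ± 0.20. Hist2h2ab, the only H2A gene with a positive value, was low, at 2.19 and 1.73 CPM in WT and 2.12 and 3.21 CPM in Dnmt3l-KO.

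Among H2B genes, Hist1h2bb (chr13:23746734-23747223) had 137 and 160.0 CPM in WT and 75.2 and 89.5 CPM in Dnmt3l-KO. The groups were well apart, with a log2 fold change of -0.85 ± 0.14 (edgeR, adjusted p = 0.966; DESeq2, adjusted p = 0.00066). Hist1h2bg had 89.7 and 87.1 CPM in WT and 60.4 and 68.2 CPM in Dnmt3l-KO (-0.46 ± 0.10). Hist1h2be had 104 and 128 CPM in WT against 84.5 CPM in both knockout libraries (-0.46 ± 0.12). Hist2h2bb, the second most abundant H2B gene by mean CPM and the first per transcript length, had 154 and 204 CPM in WT and 107 and 146 CPM in Dnmt3l-KO (-0.50 ± 0.21). These 3 were lower in both Dnmt3l-KO libraries and did not pass (edgeR, adjusted p = 0.999 for each). The pseudogene Hist3h2bb-ps had the most negative value of the type, -2.46 ± 0.57, at levels of 0.849 and 0.767 CPM in WT and 0.0802 and 0.215 CPM in Dnmt3l-KO, close to the limit of detection. Hist1h2bq, the only H2B gene above 0 (log2 fold change 0.08 ± 0.28), overlapped between the genotypes. It was 100% identical to Hist1h2br over 1254 aligned bases, so its value depends on how their reads were divided.

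Hist1h2bc (chr13:23684199-23692480), the most abundant H2B gene by mean CPM, had 178 and 171 CPM in WT and 162 and 150.3 CPM in Dnmt3l-KO. The table lists a pair of transcripts for this gene, and their values ran in opposite directions. Transcript NM_001290380.1 took 3733 and 3086 counts in the WT libraries against 1960 and 2102 in the others (log2 fold change -0.77 ± 0.17). Transcript NM_023422.3 took 4655 and 4037 counts in the WT libraries against 6106 and 4180 in the others (0.19 ± 0.14). Scaled for library size, NM_001290380.1 stood at 79.3 and 74.0 CPM in WT and 39.3 and 50.3 CPM in Dnmt3l-KO, lower in both Dnmt3l-KO libraries. NM_023422.3 stood at 98.8 and 96.7 CPM in WT and 122 and 99.98 CPM in Dnmt3l-KO, higher in both, though replicate 2 lay close to WT. Neither passed (edgeR on transcripts, adjusted p = 0.9999 for each). Of the 6 histone genes with more than 1 listed transcript, Hist1h2bc was the one in which both took a large part of the counts.

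Among H3 genes, Hist1h3h (chr13:21717628-21718115) had 52.7 and 60.6 CPM in WT and 24.0 and 31.1 CPM in Dnmt3l-KO. Both Dnmt3l-KO values lay far below both WT values, with a log2 fold change of -1.04 ± 0.16 (edgeR, adjusted p = 0.966; DESeq2, adjusted p = 0.00018). Hist1h3c had 70.6 and 103 CPM in WT and 34.99 and 68.2 CPM in Dnmt3l-KO (-0.75 ± 0.36). Hist1h3i had 57.4 and 71.8 CPM against 32.6 and 54.7 CPM (-0.57 ± 0.27), and Hist2h3c1 had 24.4 and 40.2 CPM against 22.2 and 22.1 CPM (-0.54 ± 0.25). The groups did not overlap for these 3, but for Hist1h3c and Hist1h3i replicate 2 of Dnmt3l-KO came close to replicate 1 of WT. With each library left out, log2 fold changes ranged from -1.31 to -0.35 for Hist1h3c, from -0.99 to -0.24 for Hist1h3i and from -0.86 to -0.14 for Hist2h3c1. Hist1h3b (71.9 and 106 CPM, 59.0 and 72.9 CPM) and Hist2h3c2 (89.4 and 103 CPM, 60.4 and 101 CPM), the most abundant H3 genes by mean CPM, overlapped.

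The H4 genes, whose protein hardly differs between copies, were mostly level. Hist1h4d (chr13:23581568-23581969), the most abundant histone message per transcript length, had 254 and 316 CPM in WT and 242 and 298 CPM in Dnmt3l-KO (log2 fold change -0.08 ± 0.16). Hist1h4h had 209 and 273 CPM against 215 and 239 CPM (-0.09 ± 0.16), and Hist2h4 had 43.8 and 63.5 CPM against 51.3 and 62.6 CPM (0.09 ± 0.21). For these genes the replicates of a genotype were further apart than the genotypes. Hist1h4m (chr13:21811746-21812150) was separated by genotype, with 231 and 279 CPM in WT and 197 and 189 CPM in Dnmt3l-KO (-0.40 ± 0.13). Hist1h4f had 125.5 and 153 CPM against 112 and 125.4 CPM (-0.23 ± 0.13). Its groups did not overlap, but Dnmt3l-KO replicate 2 was almost level with WT replicate 1. Hist1h4b had 54.7 and 74.7 CPM against 49.1 and 55.1 CPM and overlapped. Hist1h4n had the most negative value of all members, -2.69 ± 0.85, from only 82 and 36 counts in the WT and 17 and 2 in the Dnmt3l-KO libraries. It was 99.8% identical to Hist1h4m over 402 aligned bases. None of the H4 genes passed (edgeR, lowest adjusted p = 0.999; DESeq2 called 0, and 2 were lower at an unadjusted p under 0.05).

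The H1 genes differed little between the genotypes. Hist1h1c (chr13:23738807-23739531) had 124 and 131 CPM in WT and 111 and 122 CPM in Dnmt3l-KO, the only H1 gene whose groups did not overlap (log2 fold change -0.14 ± 0.10). Hist1h1d had 68.1 and 108 CPM in WT and 76.7 and 90.6 CPM in Dnmt3l-KO, inside the WT range. Hist1h1e was slightly higher, at 74.1 and 98.4 CPM in WT and 84.1 and 103 CPM in Dnmt3l-KO (0.11 ± 0.18). Hist1h1a had 50.3 and 69.5 CPM against 41.6 and 67.3 CPM, and Hist1h1b 40.8 and 52.6 CPM against 39.9 and 46.9 CPM. In edgeR, 0 of the 5 tested H1 genes passed or had an unadjusted p under 0.05, and DESeq2 called 0.

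**Figure D3:**
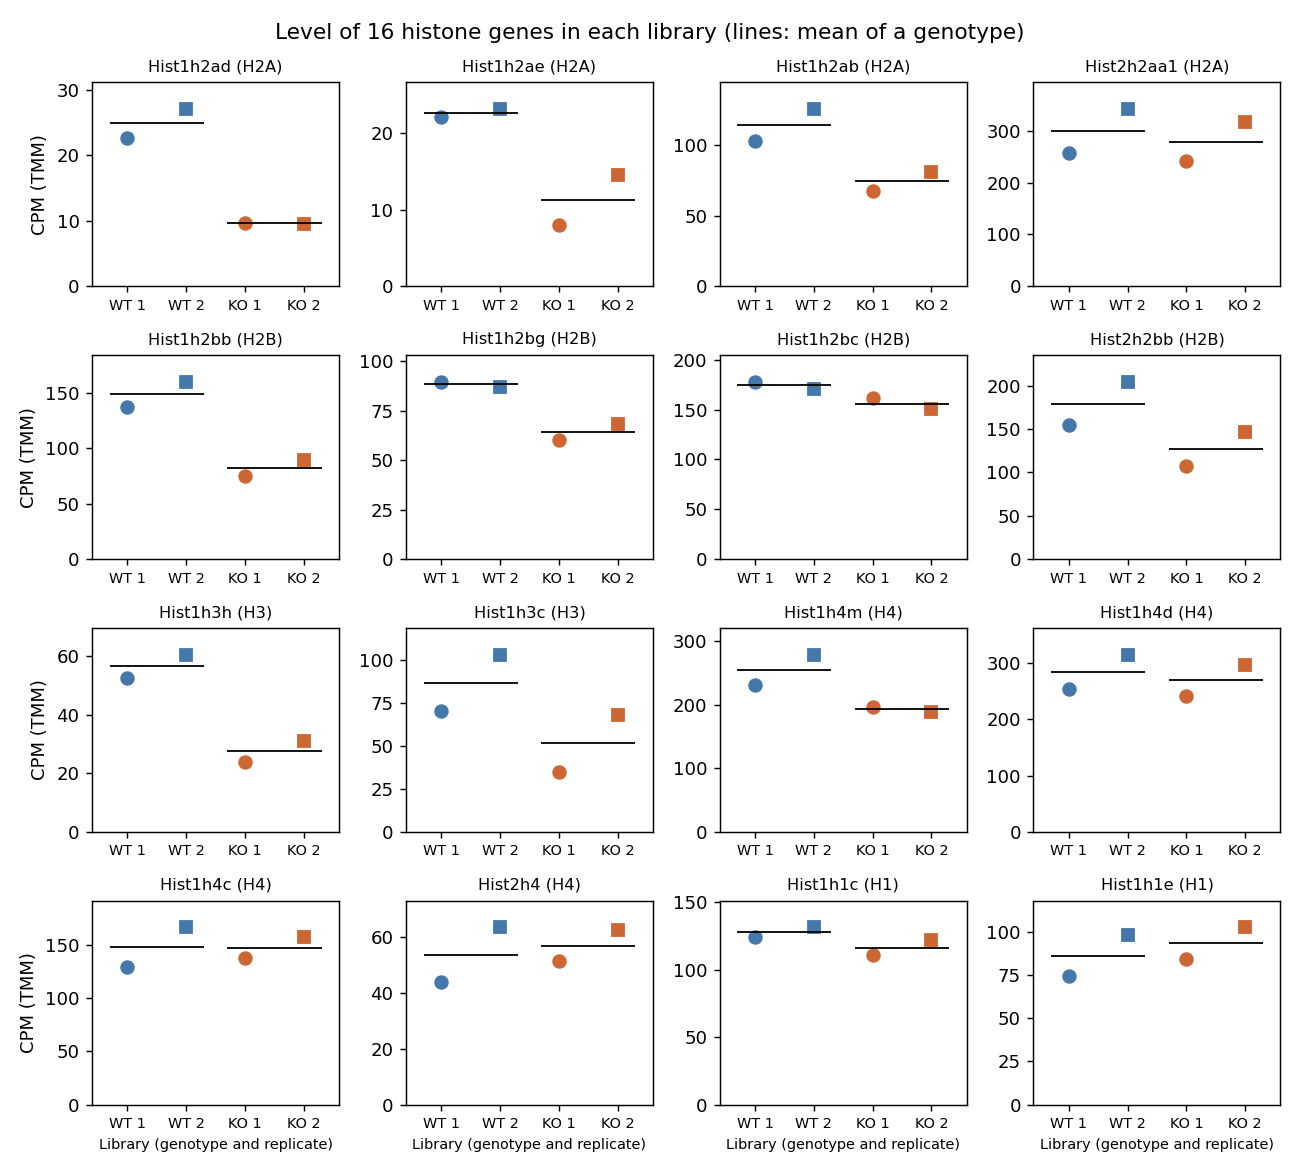
Each panel gives the TMM-scaled CPM of 1 histone gene in the 4 libraries (circles replicate 1, squares replicate 2, lines the genotype mean; each y axis starts at 0). Hist1h2ad, Hist1h2bb and Hist1h3h are separated by genotype by more than the gap between replicates, while Hist2h2aa1, Hist1h4d, Hist1h4c and Hist2h4 are not.

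Values of single genes depend on how reads of near-identical copies were divided, which no source used here states. At an identity of at least 95% over at least 80% of the shorter transcript, 50 of the 69 genes had a copy, and all 12 H3 genes formed 1 group. The 12 alike Hist1 H2A genes, summed, had 491 and 619 CPM in WT and 280.1 and 455 CPM in Dnmt3l-KO. The 14 alike Hist1 H2B genes had 954 and 1141 CPM in WT and 742 and 822 CPM in Dnmt3l-KO. Both sums were lower in both Dnmt3l-KO libraries. The 4 alike genes around Hist2h2aa1 had 310 and 410.0 CPM in WT and 273 and 370 CPM in Dnmt3l-KO and overlapped, and so did the H4 group of 6 genes. With copies summed, the log2 fold change was -0.60 ± 0.27 for the 12 H2A genes, -0.42 ± 0.14 for the 14 H2B genes and -0.48 ± 0.27 for the 12 H3 genes. The median over the 22 tested histone features was -0.14, against -0.36 over single genes. Of these features 8 were of H4, 5 of H1, 4 each of H2A and H2B, and 1 of H3. In edgeR 0 of the 22 passed (adjusted p = 0.999 for each). Hist1h2ad was thus uncertain by itself, while the lower sum of the Hist1 H2A group did not rest on the division among its 12 genes.

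The genes could also be read by their place and promoter. The median log2 fold change was -0.55 for the 23 Hist1 genes of the first stretch, -0.33 for the 28 tested genes of the second, and -0.25 for the 10 Hist2 genes. The 2 stretches differed in their make-up by type. By type, medians of the first and second stretch were -0.69 and -0.73 for H2A and -0.46 and -0.35 for H2B. They were -0.80 (2 genes) and -0.43 for H3, -0.33 and -0.09 for H4, and -0.11 (1 gene) and -0.10 for H1. Differences between places were not tested. Of the 3 Hist3 genes only Hist3h2a was well expressed, at -0.14, while Hist3h2ba had just 6 to 12 counts a library and Hist3h2bb-ps lay under 1 CPM. RefSeq promoters (GRCm38.p6, 250 bases before to 50 after the start) were at hand for 62 of the 69 genes. The CCAAT box, searched as CCAAT on both strands, was in 50 of 50 promoters of H1, H2A, H2B and H3 but in 3 of 12 of H4, Hist1h4a, Hist1h4c and Hist1h4d, against 37.4% of all 32851 promoters. The octamer ATTTGCAT, the site of Oct factors in H2B promoters, was in 7 of 16 H2B and 7 of 18 H2A promoters. It was in none of the other types, against 1.74% of all promoters. Where an H2A and an H2B gene start close together on opposite strands, their windows overlap and 1 match can count for both. Such a shared octamer was counted for Hist1h2ae with Hist1h2bg, Hist1h2ah with Hist1h2bk and Hist1h2aa with Hist1h2ba. The H1 element AAACACA was in 5 of 6 H1 promoters (7.18% of all), and TATAAA in 35 of 62 (13.6% of all). No match of 1 motif overlapped one of another. The H2B genes with the octamer had a median log2 fold change of -0.48 (6 tested) and those without it -0.36 (9 tested), and the H2A genes -0.56 (6) and -0.55 (11). The few H4 genes with a CCAAT box lay at -0.09 to -0.01, above the median of H4.

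Among the 62 genes with a RefSeq promoter, 10 H2A genes stood head to head with an H2B gene, with 163 to 280 bases between the starts. By RefSeq gene bounds and GENCODE M21 strands, 3 more pairs did, Hist1h2ac with Hist1h2bc, Hist2h2ac with Hist2h2be and Hist3h2a with Hist3h2bb-ps. The H2A gene had the lower fold change in 9 of the 12 pairs with both genes tested, and in 7 of the 9 of them that have promoters. The median log2 fold change over the 12 pairs was -0.62 for the H2A partners and -0.36 for the H2B partners. The partner of Hist1h2ad, Hist1h2bf, had 24.4 and 32.0 CPM in WT and 20.0 and 28.7 CPM in Dnmt3l-KO, with overlapping groups and a log2 fold change of -0.21 ± 0.23. Hist1h2ae and Hist1h2bg differed by 0.55 in log2 fold change, and Hist1h2ao and Hist1h2bq by 0.77. In 3 pairs the H2B gene had the lower value. Hist1h2bj, well expressed with 70.7 and 103 CPM in WT and 47.2 and 60.7 CPM in Dnmt3l-KO, stood at -0.69 against -0.55 for Hist1h2ag. Hist1h2br, with 0.616 and 6.09 CPM in WT and 0.902 and 1.75 CPM in Dnmt3l-KO, stood at -1.34 against -0.21 for Hist1h2ap. Hist3h2bb-ps, under 1 CPM, was lower than Hist3h2a. Many partners are near-identical to genes of other pairs, and differences within pairs were not tested. Hist1h2bq and Hist1h2br were 100% identical over 1254 aligned bases, and Hist1h2ao and Hist1h2ap over 452. The values of these genes and of their pairs thus depend on how shared reads were divided. The shared regions of 2 pairs are shown from the plus strand, with CCAAT or its complement, the octamer and TATAAA in capitals. The first lies at chr13:23574208-23574380 and the second at chr13:23571221-23571399.
Hist1h2bf to Hist1h2ad: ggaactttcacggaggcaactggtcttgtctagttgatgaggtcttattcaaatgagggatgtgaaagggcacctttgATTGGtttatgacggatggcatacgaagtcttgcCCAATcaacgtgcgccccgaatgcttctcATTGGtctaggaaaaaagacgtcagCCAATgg
Hist1h2ae to Hist1h2bg: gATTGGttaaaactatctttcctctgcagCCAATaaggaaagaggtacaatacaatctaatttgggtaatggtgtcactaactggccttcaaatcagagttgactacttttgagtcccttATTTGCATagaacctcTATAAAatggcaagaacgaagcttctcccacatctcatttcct

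The first region holds 4 CCAAT matches and neither of the other motifs. The TATAAA counted above for Hist1h2ad and Hist1h2bf lies in their promoter windows but outside the stretch shown. The second has an octamer followed by TATAAA in the direction of Hist1h2bg, with 1 CCAAT match on each strand. In both pairs the H2A gene was the lower one.

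**Figure D4:**
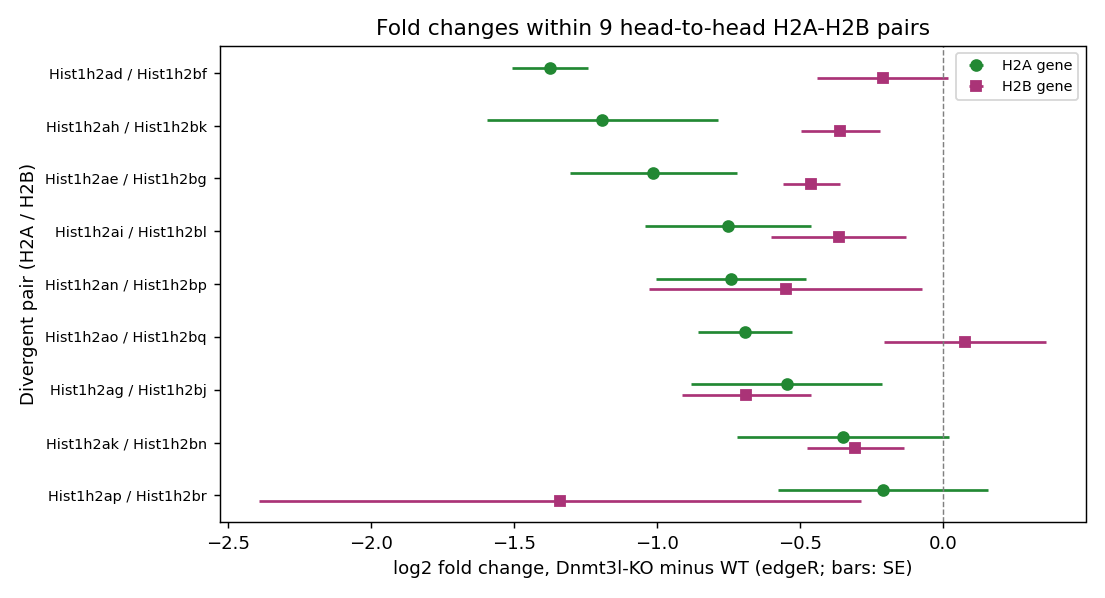
For each of the 9 head-to-head pairs with RefSeq promoters and both genes tested (y axis) the log2 fold change, Dnmt3l-KO minus WT (x axis), is given for the H2A gene (circles) and the H2B gene (squares) with bars for the standard error. The H2A gene lies to the left of its partner in 7 pairs, and the widest gap among them is that of Hist1h2ad and Hist1h2bf.

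Factors that switch histone genes on in S phase had a median close to 0. Of 12 such genes, 6 were negative, the median was -0.05, and 0 passed in edgeR, DESeq2 or limma-voom. Both Dnmt3l-KO libraries lay below both WT libraries for 4 of them (33.3%), against 16.5% of all symbols. The reverse held for 1 (8.33%), against 16.2%. Npat, the cyclin E/Cdk2 substrate that drives histone gene transcription, had 39.8 and 40.8 CPM in WT and 39.3 and 43.0 CPM in Dnmt3l-KO. Casp8ap2 (FLASH), its partner at histone locus bodies, had 29.3 and 29.2 CPM against 24.8 and 28.1 CPM. Hinfp, which binds H4 promoters, had 10.8 and 10.98 CPM against 9.24 and 9.97 CPM, and Creb1, a transcription factor that binds cAMP response elements, had 46.8 and 40.98 CPM against 37.5 and 40.1 CPM. E2f1, an activator of S-phase genes, had 20.2 and 22.05 CPM against 28.6 and 24.9 CPM, the only one of the 12 at an unadjusted p under 0.05 (edgeR, adjusted p = 0.999). Npat overlapped between the genotypes, Casp8ap2, Hinfp and Creb1 were lower in both Dnmt3l-KO libraries, and E2f1 was higher in both.

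The machinery that cuts and degrades histone messages gave a like picture. Of 20 tested genes of 21 listed, 13 were negative, the median was -0.02, and 0 passed or had an unadjusted p under 0.05 in edgeR. DESeq2 and limma-voom called 0. Slbp, the stem-loop binding protein, had 37.3 and 44.5 CPM in WT and 42.9 and 36.9 CPM in Dnmt3l-KO. Lsm11, a protein of the U7 particle, had 15.4 and 13.7 CPM against 15.2 and 10.9 CPM, and Zfp473, a further factor of the cut, had under 0.8 CPM in each library. All 3 overlapped. The U7 RNA itself, Rnu7, was listed at 0 in each library. Sympk, the scaffold of the cleavage complex, had 112 and 110.0 CPM against 143 and 124 CPM (log2 fold change 0.26 ± 0.11). Exosc10, an exosome nuclease, was also higher in both Dnmt3l-KO libraries (0.19 ± 0.10), and Lsm1, which takes part in decay, was lower in both (-0.31 ± 0.13).

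Histone chaperones, which carry new histones to chromatin, were split. Of 22 genes, 14 were negative, with a median of -0.05, and 0 passed or had an unadjusted p under 0.05 in edgeR, with 0 calls in DESeq2 and limma-voom. In both Dnmt3l-KO libraries 7 (31.8%) were lower than in both WT libraries, against 16.5% of all symbols. The reverse held for 3 (13.6%), against 16.2%. Nasp, the H3-H4 chaperone, had 28.8 and 27.9 CPM in WT and 20.4 and 25.4 CPM in Dnmt3l-KO (-0.31 ± 0.14). The importin Ipo4 (0.26 ± 0.11) and the HIRA-complex subunit Cabin1 (0.21 ± 0.09) were higher in both Dnmt3l-KO libraries.

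Genes of DNA replication, whose own messages carry poly(A) tails and peak around S phase, leaned the same way as the histone genes by a smaller step. Of 38 genes, 35 were negative, at a median of -0.14. In both Dnmt3l-KO libraries 18 of them (47.4%) were lower than in both WT libraries, against 16.5% of all symbols. The reverse held for 0, against 16.2% of all symbols. In this list 0 passed in edgeR, DESeq2 or limma-voom. Pola1, the catalytic subunit of DNA polymerase alpha, had 29.0 and 30.2 CPM in WT and 21.3 and 24.6 CPM in Dnmt3l-KO (-0.37 ± 0.12). Mcm6, a subunit of the replicative helicase, had 95.2 and 95.02 CPM against 80.3 and 78.3 CPM (-0.26 ± 0.08). Both were at an unadjusted p under 0.05 and did not pass after adjustment (edgeR, adjusted p = 0.999 for each). Relative to the WT mean, the list's median was -0.13 for replicate 1 of Dnmt3l-KO and -0.15 for replicate 2, while the histone genes stood at -0.55 and -0.15. The part of S phase in the histone values was not tested.

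Replacement histone variants, which are made outside S phase too and whose messages mostly carry poly(A) tails, had a median of -0.11. Of the 11 genes, 8 were negative and 0 were called in edgeR, DESeq2 or limma-voom. H2afz, the H2A.Z gene, had 123 and 121 CPM in WT and 95.4 and 95.6 CPM in Dnmt3l-KO (-0.35 ± 0.08). H2afj had 45.7 and 47.2 CPM against 35.6 and 36.2 CPM (-0.37 ± 0.09). For both genes the 2 libraries of a genotype agreed within a few percent and the genotypes were apart, yet neither passed (edgeR, adjusted p = 0.999). H1fx, an H1 variant, was low and overlapped (0.30 ± 0.32). The median of this list turned to 0.14 without Dnmt3l-KO replicate 1.

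Other RNAs that lack a poly(A) tail were set beside the histone messages. Of 10 listed, 6 could be tested, all with negative fold changes and a median of -0.43, and 0 passed in edgeR, DESeq2 or limma-voom. Terc, the telomerase RNA, had 9.51 and 8.82 CPM in WT and 5.75 and 4.90 CPM in Dnmt3l-KO (-0.78 ± 0.17), the only one at an unadjusted p under 0.05. Rn7sk, the RNA of the 7SK particle, had 17086 and 11381 CPM against 8891 and 13685 CPM and overlapped, and Rnu12, the U12 spliceosomal RNA, was under 0.5 CPM throughout (-1.09 ± 0.57). The list's median was -0.12 without WT replicate 1 and -0.72 without WT replicate 2. Relative to the WT mean, it stood at -0.32 for replicate 1 of Dnmt3l-KO and at -0.57 for replicate 2, the opposite order to the histone genes. The part that the lack of a tail has in these values was not tested.

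**Figure D5:**
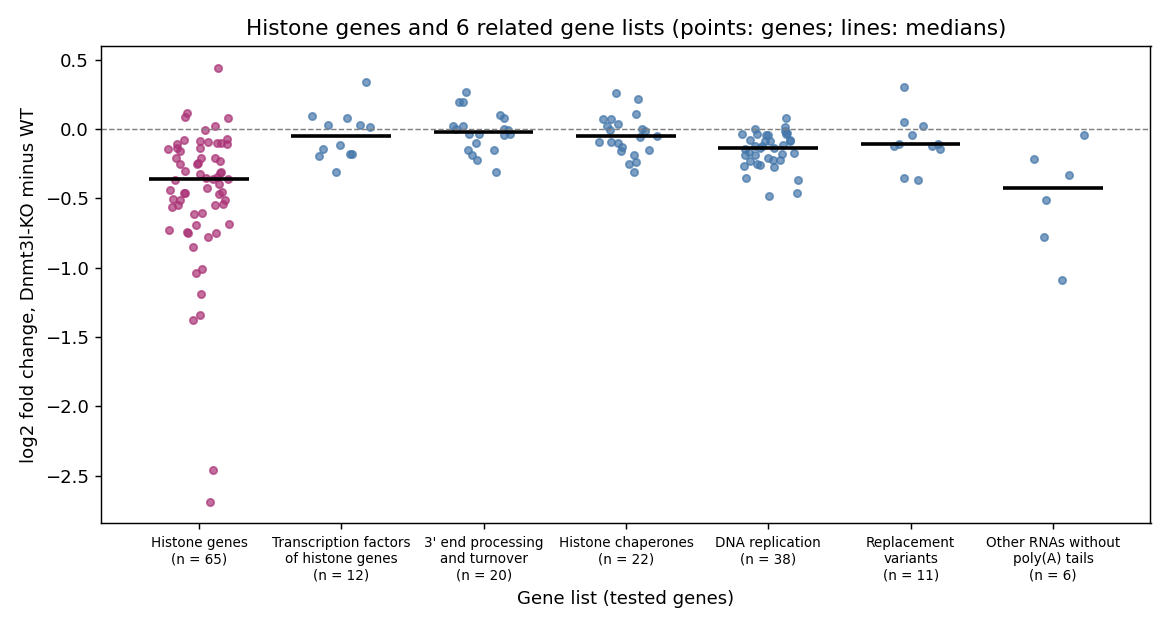
Points are the tested genes of the histone list and of 6 related lists (x axis, with the number tested), placed by log2 fold change, Dnmt3l-KO minus WT (y axis), with a line at each median. The histone genes have a median of -0.36 and a longer tail downward than the lists of transcription factors, 3′ end processing, chaperones, DNA replication and replacement variants, and the 6 other RNAs without poly(A) tails have one of -0.43.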

How the data were processed

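RNA sequencing of 4 MEF libraries was read from 1 deposited table of 116415 RefSeq transcripts. Per the file headers, estimated counts and FPKM values stand beside the authors' own comparison, which has p-values (raw and adjusted), a test score, log2 fold changes with their error and a mean signal per transcript. The estimated counts were deposited as whole numbers. The submitters' processing notes name eXpress 1.4.1, DESeq2 1.8.0, TopHat2 2.0.12 and Cufflinks 2.2.1, and the build mm10, which is GRCm38. Their roles, the use of strand and the division of reads among copies are not given in the sources used here.

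Counts were summed per symbol, the last bracketed word before a comma in the description, and edgeR 4.0.16 (R 4.3.3) was run with TMM, robust quasi-likelihood fits and genotype as the only term. It tested the 14760 symbols that passed its filter on low counts, at a Benjamini-Hochberg threshold of 0.05. Standard errors were derived from the F statistic, and ± after a fold change is that error. The fit was tested on simulated counts. DESeq2 1.42.0, limma 3.58.1 (voom, or log2 FPKM plus 1 or plus 0.1), other scalings and filters, transcripts as features, copies summed by BLAST 2.17.0 identity, a correction for length and GC (90.1% of tested symbols had both), the replicate number as a block and leaving out each library were alternatives. GENCODE M21 and RefSeq tables gave positions and sequences, and all 69 genes were matched.

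Named genes were, of each type, the 4 with the smallest p, the 3 with the highest CPM and the largest opposite value, all genes that a tool called, and of other lists the 3 with the smallest p plus Slbp, Npat, Casp8ap2, Lsm11 and Zfp473. The values of 1 gene that the rule names are not reported here. Genes outside this rule (Hist1h2ac, Hist1h2ag, Hist1h2bf, Hist1h2bj, Hist1h2br, Hist2h2be, Hist3h2a, Hist3h2ba, Hist1h4a, Hist1h4c, Hist2h2ac, Rnu7 and untested members among them) were named after their values had been seen. The members and lists were chosen with earlier results of these data known.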

Additional observations from a re-analysis of the deposited data

How the results depend on the processing

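Among 14760 symbols edgeR called 3. It called 8 with no filter and 1 with transcripts as features, limma on log2 FPKM called 6 with a pseudocount of 1 and 9 with 0.1, DESeq2 called 31, and leaving out each library gave 2 to 6. Histone genes called were 0 in the main test, 1 with no filter and 3 with DESeq2, and 0 in each of the other settings. The histone median ranged from -0.55 to -0.17 with each library left out and was -0.37 with the length and GC correction. With near-identical genes summed it was -0.14, over 22 features of which 8 were of H4 and 5 of H1. The histone median was -0.39 with the replicate block, which called 4 genes, 0 of them histone genes. The replicate numbers share no stated source: deviations of same-numbered libraries correlated at 0.070 over all symbols and 0.399 over histone genes.

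The H2A median was -0.15 with near-identical genes summed, over 4 features. In it 12 genes become 1 feature, which stood at -0.60. With each library left out, medians ranged from -0.92 to -0.20 for H2A, from -0.60 to -0.25 for H2B, from -0.79 to -0.17 for H3, from -0.28 to 0.00072 for H4, from -0.23 to 0.10 for H1, from -0.089 to 0.017 for transcription factors, from -0.055 to -0.013 for 3′ processing, from -0.061 to -0.029 for chaperones, from -0.21 to -0.094 for DNA replication, from -0.33 to 0.14 for replacement variants and from -0.72 to -0.12 for other RNAs without poly(A) tails. The H1 share was higher in Dnmt3l-KO by 0.9997 percentage points on FPKM, against 1.60 on CPM.

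With each library left out, 11 of 32 named histone genes changed sign, 13 kept it but moved by over 1.5 times, and 8 did neither. Of those that changed sign, log2 fold changes ranged from -0.53 to 0.17 for Hist1h1a, -0.28 to 0.089 for Hist1h1b, -0.37 to 0.30 for Hist1h1d, -0.078 to 0.33 for Hist1h1e, -0.81 to 0.21 for Hist1h2ap, -0.27 to 0.54 for Hist1h2bq, -0.24 to 0.086 for Hist1h4d, -0.27 to 0.12 for Hist1h4h, -0.31 to 0.12 for Hist2h2aa1, -0.67 to 0.071 for Hist2h3c2 and -0.16 to 0.38 for Hist2h4. Hist1h1d was 0.0039 and 0.0043 on log2 FPKM with pseudocounts of 1 and 0.1, and Hist1h2bc 0.19 with its more abundant transcript as the feature. The cause was not tested. With 2 libraries a genotype, differences of the size of the histone median lie within the spread between libraries, and where 1 library is left out the lone one is assumed to vary like the other group.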
